A study of Homo sapiens with 4 samples.

Results

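The replication-dependent histone genes were taken as the protein-coding genes of the deposited count table whose symbol begins with HIST1H, HIST2H, HIST3H or HIST4H. This rule found 71 of the 58735 genes in the table, of which 6 encode histone H1, 17 H2A, 18 H2B, 15 H3 and 15 H4. RNA was sequenced from Hey-A8, a human ovarian cancer cell line, in 4 libraries. The 2 shCON libraries come from cells with a control short hairpin RNA, and the 2 shSPTLC2 libraries from cells with a hairpin labelled as directed at SPTLC2, a catalytic subunit of the enzyme that starts sphingolipid synthesis. The design text and titles give a stable SPTLC2 knockdown, while the treatment protocol names hairpins against ZDHHC15 in transiently transfected cells, and the groups here follow the titles. The labels do not say how many hairpins or clones were used, and nothing in them makes the libraries of a group separate cultures, so p-values measure only the spread between these libraries.

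Core histones H2A, H2B, H3 and H4 form the octamer around which DNA winds in the nucleosome, and the linker histone H1 binds where the DNA enters and leaves it. Cells make most of this protein during S phase from clustered genes without introns. Their main mRNAs end not in a poly(A) tail but just after a stem loop, which the stem-loop binding protein SLBP holds and U7 snRNP helps to cut. Some of these genes also give longer, polyadenylated transcripts that run past the stem loop, and cells that have left the cycle often use these. The protocol in the labels gives total RNA, a precipitation that discards small RNA and the NEBNext Ultra RNA kit, and it does not say whether poly(A) RNA was selected.

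A stem loop with paired arms of 6 bases and a loop of 4 was found after the stop codon in GENCODE 29 transcript models of 30 of the 71 genes. It lay 22 to 67 bases past the stop codon. 4 forms occurred, shown because the H4 genes carried forms of their own and because the bases beyond the loop mark which transcripts a model covers. The arms are in capitals and the loop in lower case.
HIST1H2AC: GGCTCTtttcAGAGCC
HIST1H2BC: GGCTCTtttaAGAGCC
HIST1H4H: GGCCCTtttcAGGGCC
HIST1H4I: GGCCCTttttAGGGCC
The form shown for HIST1H2AC (chr6:26124669-26124684, hg38, plus strand) occurred in 17 genes of types H2A, H2B and H3, HIST2H2BE among them. The form shown for HIST1H2BC (chr6:26123472-26123487, minus strand) occurred in 5 genes of types H2B and H3. The forms with the arms GGCCCT and AGGGCC were found in 8 genes, all of type H4, 5 with the loop of HIST1H4H and 3 with that of HIST1H4I (chr6:27139654-27139669, plus strand). Among models with the stem loop, up to 1128 bases followed it in HIST1H2AC and 1729 in HIST2H2BE. The most was 116 in HIST1H2BC, 212 in HIST1H4I and 39 in HIST1H2BD. HIST1H2BC and HIST1H2BD each also have a model in which no loop was found, with 3′ UTRs of 272 and 384 bases. No stem loop was found in any model of the other 41 of the 71 genes, 35 of which have no 3′ UTR in their model. The search took only a first arm that begins with GG and ends in T, a loop that opens with TT, and a fully paired second arm. Other forms would be missed, so the 4 forms are limited by this pattern.

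Promoters are shown for the 4 H2B genes that fell in shSPTLC2 and, for comparison, for HIST1H2BD, an H2B gene that was not called. The octamer ATTTGCAT, the element that Oct1 binds in H2B promoters, is in capitals and the other bases are in lower case. The windows are from RefSeq on GRCh38.p14, 250 bases before the start to 50 after it, read 5′ to 3′ on the gene's strand.
HIST1H2BC: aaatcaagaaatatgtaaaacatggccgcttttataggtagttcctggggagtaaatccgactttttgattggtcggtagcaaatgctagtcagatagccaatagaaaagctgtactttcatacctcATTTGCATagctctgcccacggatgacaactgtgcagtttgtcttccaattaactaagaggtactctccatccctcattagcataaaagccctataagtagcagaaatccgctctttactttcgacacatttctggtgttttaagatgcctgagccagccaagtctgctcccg
HIST1H2BJ: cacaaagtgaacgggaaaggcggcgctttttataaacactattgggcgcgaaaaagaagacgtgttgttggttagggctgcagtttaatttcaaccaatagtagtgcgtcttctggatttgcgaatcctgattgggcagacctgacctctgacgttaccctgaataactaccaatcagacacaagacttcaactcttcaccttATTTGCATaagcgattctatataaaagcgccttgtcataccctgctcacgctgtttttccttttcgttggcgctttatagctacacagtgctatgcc
HIST1H2BK: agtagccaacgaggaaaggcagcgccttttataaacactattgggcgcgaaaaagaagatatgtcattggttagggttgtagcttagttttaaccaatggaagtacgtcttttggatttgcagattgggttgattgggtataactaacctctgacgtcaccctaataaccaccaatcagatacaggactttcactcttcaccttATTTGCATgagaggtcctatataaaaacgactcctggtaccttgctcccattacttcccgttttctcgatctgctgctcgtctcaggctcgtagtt
HIST2H2BE: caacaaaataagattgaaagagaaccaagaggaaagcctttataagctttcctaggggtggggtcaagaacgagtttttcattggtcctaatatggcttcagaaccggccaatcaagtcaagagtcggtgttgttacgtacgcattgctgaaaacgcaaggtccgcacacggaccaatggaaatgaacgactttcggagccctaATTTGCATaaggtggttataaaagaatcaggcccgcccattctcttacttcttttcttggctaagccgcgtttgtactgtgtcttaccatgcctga
HIST1H2BD: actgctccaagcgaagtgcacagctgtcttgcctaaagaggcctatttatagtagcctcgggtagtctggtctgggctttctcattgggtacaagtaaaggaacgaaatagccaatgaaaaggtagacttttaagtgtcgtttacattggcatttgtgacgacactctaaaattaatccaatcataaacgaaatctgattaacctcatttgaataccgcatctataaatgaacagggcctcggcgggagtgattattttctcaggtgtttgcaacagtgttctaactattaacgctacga
The windows lie at chr6:26123877-26124176 (minus strand) for HIST1H2BC, chr6:27132746-27133045 (minus) for HIST1H2BJ, chr6:27146809-27147108 (minus) for HIST1H2BK, chr1:149886633-149886932 (minus) for HIST2H2BE and chr6:26157871-26158170 (plus) for HIST1H2BD. The octamer began 46 bases before the start in HIST1H2BK and HIST2H2BE, 47 in HIST1H2BJ and 123 in HIST1H2BC, and these letters were not in the window of HIST1H2BD. Of the other H2B genes tested and not called, HIST1H2BG and HIST1H2BH have it 48 and 49 bases before the start and HIST1H2BN does not have it. All 71 genes matched a RefSeq gene and 66 had a promoter window. ATTTGCAT or its reverse complement ATGCAAAT stood in 14 of 18 H2B windows (77.8%), 11 of 16 H2A windows (68.8%), 1 of 13 H3 windows and none of the 6 H1 or 13 H4 windows, against 492 of all 27305 RefSeq windows (1.80%). CCAAT, on either strand, stood in 84.8% of the histone windows and 35.7% of all windows, with 23.1% in H4. TATAA stood in 92.4% of the histone windows and 21.1% of all windows. A match describes the letters and not a bound site.

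Total counts ran from 14464784 to 15084966 per library. SPTLC2, in replicate order, had 871 and 884 counts in shCON against 587 and 662 in shSPTLC2, and ZDHHC15 had 0 in all. The 37 mitochondrial genes took 5.46% and 6.39% of counts in shCON and 10.1% and 8.56% in shSPTLC2. Of the ovarian cancer and epithelial markers, 14 of 16 had counts, with FOLR1 and CDH1 at 0, and 9 had enough for a test. PAX8 and MSLN were called higher. Levels are given in CPM, the count scaled to the size of its library after TMM scaling. The 16 markers summed to 2538 to 2633 CPM in shCON and 2868 to 2904 in shSPTLC2. All 8 mesenchymal markers had counts, at a sum of 6711 to 7087 CPM in shCON and 6392 to 6742 in shSPTLC2. All 8 were tested, with 1 called lower and 0 higher. The 8 immune markers summed to 0.343 to 0.809 CPM in all libraries, with CD3E and MS4A1 at 0. The 6 endothelial markers summed to 58.8 to 60.8 CPM in shCON and 110 to 132 in shSPTLC2, nearly all from CDH5, with EMCN at 0. Only 3 of them had enough counts for a test, with 1 called higher and 1 lower. Over all tested genes 10.4% were called higher and 9.00% lower.

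Transcripts of the histone clusters were scarce in these libraries. Of the 71 genes, 52 had at least 1 count and 19 had 0 in all 4 libraries. All 71 together took 0.0123% of counts in each shCON library (exact binomial 95% intervals 0.0117 to 0.0128 and 0.0118 to 0.0129), 0.00888% in shSPTLC2 replicate 1 (0.00840 to 0.00938) and 0.00839% in shSPTLC2 replicate 2 (0.00794 to 0.00887). Intervals and floors here cover counting error only. HIST1H2BK alone held 26.9% of all histone cluster counts, and the H2B genes held 45.5%, the H2A genes 26.5%, the H4 genes 14.5%, the H1 genes 8.94% and the H3 genes 4.57%.

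The genes at 0 were HIST1H1A and HIST1H1T of type H1 and HIST1H2AA, HIST1H2AH, HIST1H2AJ, HIST1H2AK, HIST1H2AM and HIST2H2AB of type H2A. They also included HIST1H2BA, HIST1H2BB and HIST1H2BM of type H2B, HIST1H3D, HIST2H3A, HIST2H3C and HIST2H3PS2 of type H3, and HIST1H4A, HIST1H4F, HIST1H4G and HIST1H4L of type H4. By counting error alone, a count of 0 allows up to 3 counts, or 0.195 to 0.206 CPM depending on the library. In 7 of these genes, over 50% of the stretches of 50 bases also occur in other genes. They are HIST1H2AJ, HIST1H2AK, HIST1H2AM, HIST1H3D, HIST2H3A, HIST2H3C and HIST2H3PS2. How reads from shared stretches were counted is not known, so this limit may not hold for these 7. HIST1H1T, HIST1H2AA and HIST1H2BA are known as testis variants.

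The number of genes with counts followed the length of the gene models. Of the 50 genes with a model under 1000 bases, 33 had any count and 6 had enough for a test, against 19 and 11 of the 21 genes with longer models. Of the 21 genes with a model that holds the stem loop and runs at least 100 bases past it, 11 were tested. Of the 9 whose models with the loop end nearer to it, 1 was, HIST1H2BD. That gene also has a model in which no loop was found, with a 3′ UTR of 384 bases, so its counts are not limited to the short form. A longer model collects more reads at the same level, so these shares do not separate length from the kind of transcript.

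**Figure D1:**
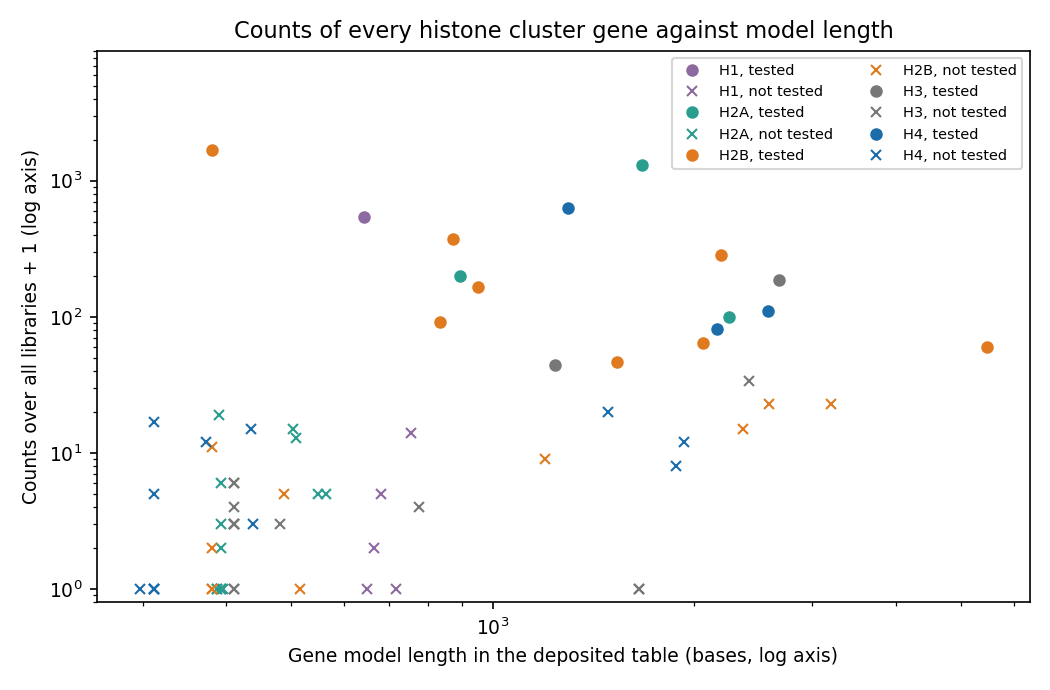
Counts of each histone cluster gene summed over the 4 libraries, plus 1, against the length of its model in the deposited table in bases, both on log axes; colour marks the histone type and the symbol whether the gene was tested. Of the 50 genes under 1000 bases 6 were tested, against 11 of the 21 longer ones.

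Of 27 listed genes of other RNA without a poly(A) tail (28 rows of the table), 13 rows had counts and 3 were tested. The other 15 rows were at 0 in all libraries, among them RN7SK, RPPH1, RMRP and RN7SL1. Over the whole table, 30392 of 58735 genes had a count. The summed level of the 28 listed rows was 225 and 534 CPM in shCON and 192 and 240 in shSPTLC2. RN7SL2, an RNA of the signal recognition particle, made up 217 and 524 CPM of it in shCON and 182 and 233 in shSPTLC2, with a log2 fold change of -0.84 ± 0.61 (SE; edgeR adjusted p = 0.476, by Benjamini-Hochberg over all tested genes). The small nucleolar RNA gene SNORD17 fell by 1.09 ± 0.27 on the log2 scale (edgeR adjusted p = 0.0124) and SNORA73B rose by 0.97 ± 0.31 (edgeR adjusted p = 0.0401). The part of these RNAs in the histone result was not tested.

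Of the 71 genes, 17 passed the filter on low counts. The quasi-likelihood test of edgeR, adjusted by Benjamini-Hochberg, called 6 of these lower in shSPTLC2 and 0 higher at an adjusted p under 0.05. Over all 15313 genes tested, 19.4% were called, 9.00% lower and 10.4% higher. The lower calls were HIST1H1C, HIST1H2AC, HIST1H2BC, HIST1H2BJ, HIST1H2BK and HIST2H2BE. No histone cluster gene had a positive log2 fold change with an unadjusted p under 0.05 in edgeR or DESeq2. In both limma fits 1 had, HIST1H3H, and DESeq2 and limma also called 0 higher after adjustment. Without the filter on low counts the same 6 were called lower among 52 genes, where 5.35% of all genes were called lower.

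The count rested on the shSPTLC2 libraries. Without shSPTLC2 replicate 1, 2 genes were called lower (1.41% of all genes tested), HIST1H2AC and HIST1H2BK, and without shSPTLC2 replicate 2, 3 genes (2.49% of all), HIST1H2AC, HIST1H2BC and HIST1H2BJ. In these fits the single library left in a group is assumed to vary like the other group. Without shCON replicate 1 all 6 were called (12.6% of all genes) and without shCON replicate 2, 5 were (9.69%). DESeq2 called 4 lower (6.62% of all). With the mitochondrial genes left out, the same 6 genes were called lower and 0 higher.

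By level alone, 10 of the 17 genes had both shSPTLC2 libraries below both shCON libraries and 1, HIST1H3H, had both above. Over all tested genes 30.2% lay wholly below and 31.3% wholly above. The log2 fold change was negative for 15 of the 17 genes, with a median of -0.61, beside a median of 0.005 over all tested genes, of which 49.5% were negative. These 17 are the genes with enough counts and do not stand for the 71. HIST1H2BC passed the filter only by its level in shCON and HIST1H3H only by its level in shSPTLC2, so each entered these tallies through the group where it is high. Without shSPTLC2 replicate 2 the median was -0.35, without shCON replicate 1 -0.39, without shCON replicate 2 -0.40, and with no filter on low counts, over 52 genes, -0.043.

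**Figure D2:**
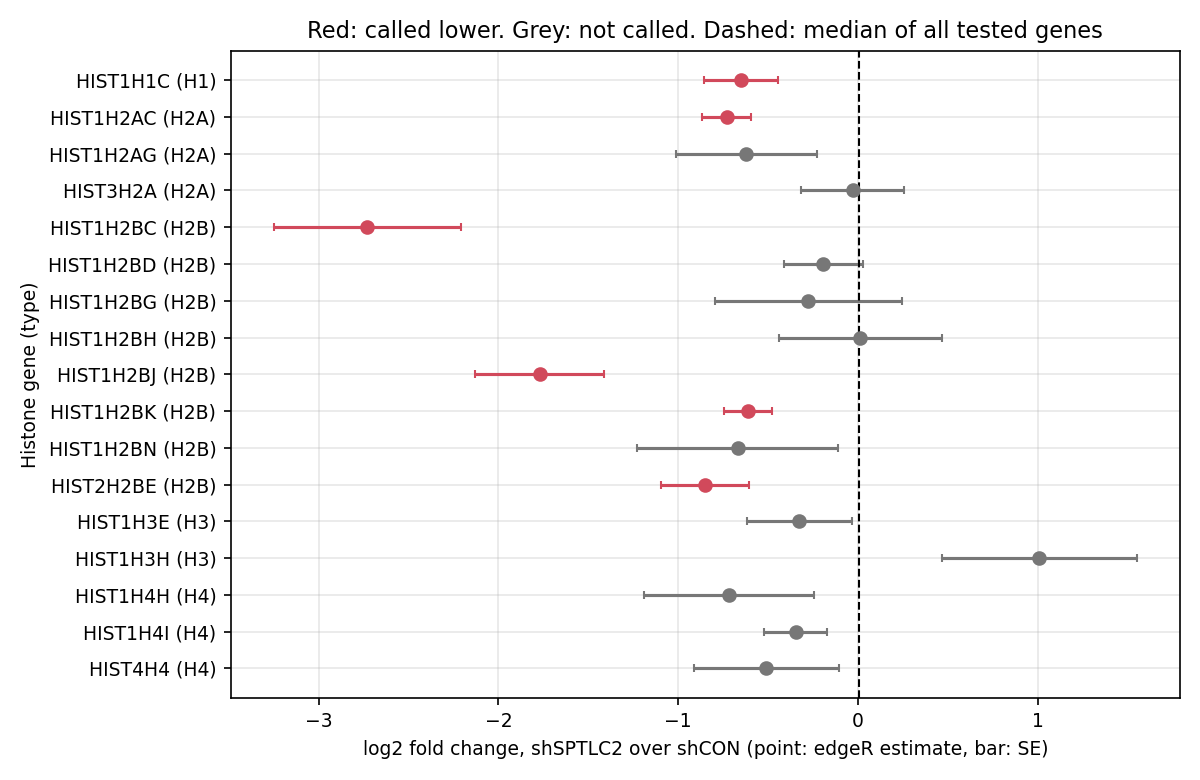
Log2 fold change of shSPTLC2 over shCON for the 17 tested histone cluster genes, grouped by type, with bars of 1 SE from edgeR and called genes marked. HIST1H2BC lies lowest at -2.73, HIST1H3H highest at 1.01, and the 6 called genes are of types H1, H2A and H2B.

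HIST1H1C (ENSG00000187837, hg38 chr6:26055787-26056428, minus strand) encodes the linker histone H1.2, and its deposited model of 642 bases is coding sequence alone. It had 140 and 187 counts in shCON and 97 and 116 in shSPTLC2. The 4 levels were 9.44, 12.8, 6.60 and 7.56 CPM in that order, so both shSPTLC2 libraries were below both shCON libraries. The mean went from 11.1 ± 2.40 CPM (SD, n = 2) to 7.08 ± 0.680, with a log2 fold change of -0.65 ± 0.21 (SE; edgeR adjusted p = 0.037). This call was the least stable of the 6, with adjusted p of 0.000856 to 0.268 over 19 alternatives. It was lost in DESeq2 (0.099), in limma on the FPKM (0.055 and 0.057), and without shCON replicate 2 (0.215), shSPTLC2 replicate 1 (0.268) or shSPTLC2 replicate 2 (0.115). HIST1H1E, which encodes H1.4, had 3 or 4 counts in each library, and HIST1H1B and HIST1H1D never had more than 2, so no difference was detectable for them at this depth.

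HIST1H2AC (ENSG00000180573, chr6:26124145-26139116, plus strand), an H2A gene, was the second most counted gene of the clusters. It had 412 and 392 counts in shCON and 248 and 247 in shSPTLC2. Levels were 27.8 and 26.9 CPM in shCON and 16.9 and 16.1 in shSPTLC2, with no overlap and little spread within groups. The mean fell from 27.3 ± 0.620 to 16.5 ± 0.546 CPM (SD, n = 2), and the log2 fold change was -0.73 ± 0.14 (SE; edgeR adjusted p = 0.0021). It was the 1 histone cluster gene called lower in all 19 alternatives, with an adjusted p of 3.81e-05 to 0.0431.

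The other H2A genes gave no call. HIST3H2A, on chromosome 1, had 57 and 43 counts in shCON and 49 and 51 in shSPTLC2, and its log2 fold change was -0.03 ± 0.29 (SE; edgeR adjusted p = 0.951), with the sign turning under 2 alternatives. Its shSPTLC2 libraries lay between the shCON libraries. HIST1H2AG changed by -0.62 ± 0.39 on the log2 scale (edgeR adjusted p = 0.287) on 33 and 26 counts against 22 and 17. HIST1H2AB, HIST1H2AD, HIST1H2AE, HIST1H2AI, HIST1H2AL, HIST2H2AA3, HIST2H2AA4 and HIST2H2AC had counts but at most 7 in any library.

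The H2B genes held the largest falls. HIST1H2BC (ENSG00000180596, chr6:26114873-26123926, minus strand) had 41 and 38 counts in shCON and 2 and 10 in shSPTLC2. Levels were 2.76 and 2.61 CPM against 0.136 and 0.652, the lowest of which is under the 3-count floor, and the gene passed the filter on low counts through shCON alone. The mean went from 2.69 ± 0.111 to 0.394 ± 0.365 CPM (SD, n = 2), with a log2 fold change of -2.73 ± 0.52 (SE; edgeR adjusted p = 0.0023, 1.88e-06 to 0.0526 over the alternatives). Because the shSPTLC2 counts are few, the ratio was also taken from the summed counts of 79 and 12, and shCON was 6.73 times shSPTLC2 (95% counting interval 3.65 to 13.6). The call ended without shSPTLC2 replicate 1, the library with 2 counts (edgeR adjusted p = 0.0526). The log2 fold change was -2.03 without that library and -4.22 without shSPTLC2 replicate 2.

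HIST1H2BJ (ENSG00000124635, chr6:27125897-27132750, minus strand) had 58 and 69 counts in shCON and 12 and 26 in shSPTLC2. At 3.91 and 4.74 CPM in shCON and 0.816 and 1.69 in shSPTLC2, the groups did not overlap, while the shSPTLC2 libraries differed between themselves. The mean went from 4.32 ± 0.583 to 1.26 ± 0.621 CPM (SD, n = 2), and the log2 fold change was -1.77 ± 0.36 (SE; edgeR adjusted p = 0.0034, 1.38e-05 to 0.0765 over the alternatives). The summed counts gave a ratio of 3.42 (95% counting interval 2.36 to 5.05). Among the 19 alternatives the call was lost only without shSPTLC2 replicate 1, where the log2 fold change was -1.35, and it was -2.39 without shSPTLC2 replicate 2.

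HIST1H2BK (ENSG00000197903, chr6:27146418-27146798, minus strand) was the most counted histone cluster gene, with 499 and 508 counts in shCON and 351 and 322 in shSPTLC2. Levels were 33.7 and 34.9 CPM against 23.9 and 21.0, without overlap. The mean fell from 34.3 ± 0.862 to 22.4 ± 2.04 CPM (SD, n = 2), and the log2 fold change was -0.61 ± 0.13 (SE; edgeR adjusted p = 0.0049, 1.39e-05 to 0.0963 over the alternatives, the highest without shSPTLC2 replicate 2). Its model is 381 bases of coding sequence, and 74.1% of its stretches of 50 bases also occur in other genes, HIST1H2BJ among them, so the value for this gene is uncertain. Without HIST1H2BK, the tested histone genes still summed to 85.8 and 87.2 CPM in shCON and 57.6 and 56.8 in shSPTLC2.

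HIST2H2BE (ENSG00000184678, chr1:149884459-149886652, minus strand), the called gene outside chromosome 6, is an H2B gene known for its polyadenylated transcript. It had 89 and 91 counts in shCON and 50 and 52 in shSPTLC2. The mean fell from 6.12 ± 0.173 to 3.39 ± 0.0086 CPM (SD, n = 2). With 2 libraries of 50 and 52 counts, so small an SD does not measure the precision of the mean. The log2 fold change of HIST2H2BE was -0.85 ± 0.24 (SE; edgeR adjusted p = 0.0235, 0.0149 to 0.149 over the alternatives). The call was lost in DESeq2 (0.085) and without shSPTLC2 replicate 1 (0.149) or replicate 2 (0.130).

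The 4 other tested H2B genes were not called. HIST1H2BD, the second most counted of the H2B genes, had 104 and 92 counts in shCON and 91 and 84 in shSPTLC2, close together in all 4 libraries, with a log2 fold change of -0.19 ± 0.22 (SE; edgeR adjusted p = 0.576). HIST1H2BN (-0.67 ± 0.56, edgeR adjusted p = 0.432), HIST1H2BG (-0.28 ± 0.52, 0.748) and HIST1H2BH (0.01 ± 0.45, 0.986) had at most 24 counts in a library. HIST1H2BH changed sign under 2 alternatives. HIST1H2BE, HIST1H2BF, HIST1H2BI, HIST1H2BL, HIST1H2BO, HIST2H2BF and HIST3H2BB had at most 9.

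**Figure D3:**
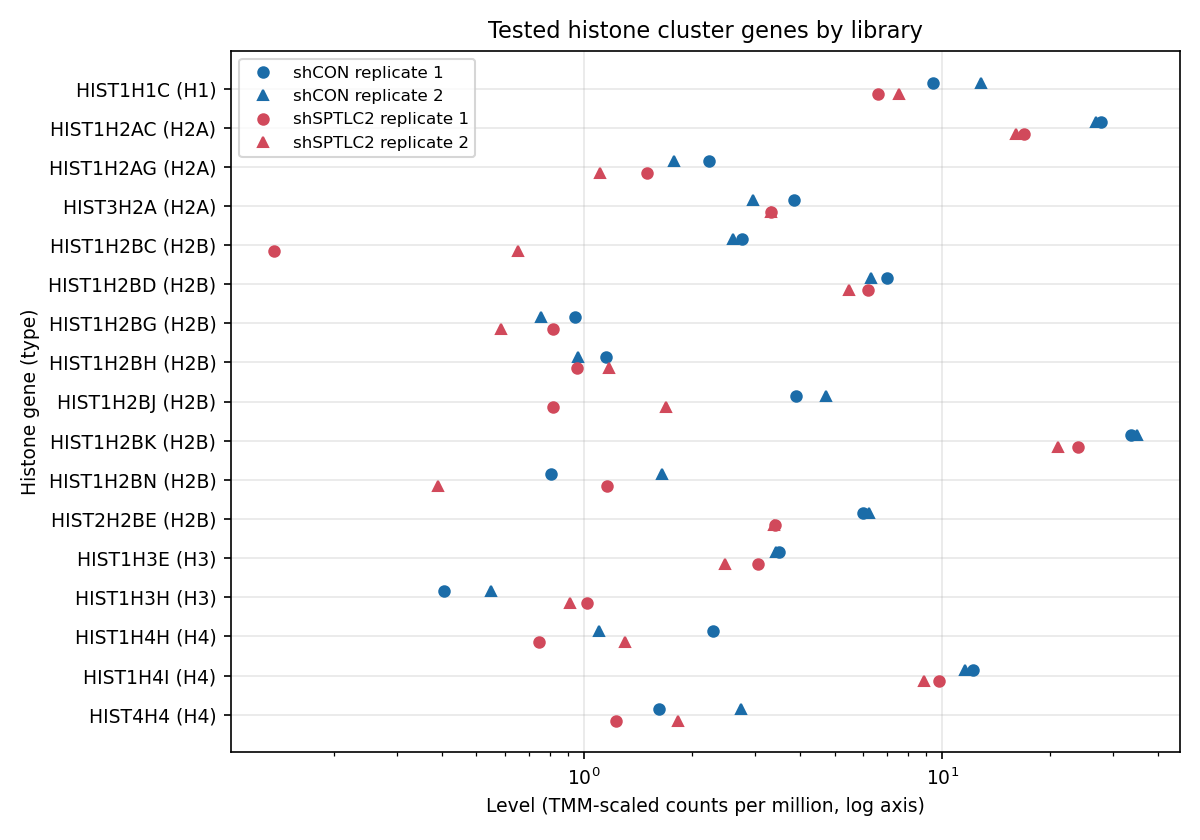
Level of each tested histone cluster gene in CPM on a log axis, with 1 point per library in the shCON and shSPTLC2 groups. HIST1H2BK and HIST1H2AC are the highest in every library, and HIST1H2BC spans the widest range, from 2.76 CPM in shCON to 0.136 in shSPTLC2.

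The H3 genes, which encode the core histone with the most modified tail, were hardly counted and none was called. HIST1H3E had 52 and 50 counts in shCON and 45 and 38 in shSPTLC2, both lower, with a log2 fold change of -0.33 ± 0.29 (SE; edgeR adjusted p = 0.464). HIST1H3H had 6 and 8 counts in shCON and 15 and 14 in shSPTLC2, the only tested gene of the clusters with both shSPTLC2 libraries above shCON. Its log2 fold change of 1.01 ± 0.54 did not pass, although the gene had passed the filter through shSPTLC2 alone (edgeR adjusted p = 0.210, 0.0567 to 0.563 over 18 alternatives). HIST1H3G, not tested, had 8 and 4 counts in shCON and 11 and 10 in shSPTLC2. Among the other H3 genes with counts, HIST1H3B, HIST1H3C and HIST1H3F also had both shSPTLC2 libraries above both shCON libraries. The groups overlapped in HIST1H3A, HIST1H3I, HIST1H3J, HIST2H3D and HIST3H3. All of these other genes had at most 3 counts in a library, too few to show a difference.

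No H4 gene was called. HIST1H4I (ENSG00000276180, chr6:27138588-27139881, plus strand) had 180 and 169 counts in shCON and 144 and 136 in shSPTLC2. Levels were 12.1 and 11.6 CPM against 9.79 and 8.86, without overlap, and the log2 fold change was -0.35 ± 0.18 (SE; edgeR adjusted p = 0.181). The RefSeq gene H2BC12, the current symbol of HIST1H2BK, covers this locus on the opposite strand, and without known strand in the counting their reads cannot be told apart. HIST1H4H (-0.72 ± 0.47, edgeR adjusted p = 0.310) and HIST4H4 on chromosome 12 (-0.51 ± 0.40, 0.403) had at most 40 counts in a library, and their groups overlapped. HIST1H4K had 5 and 2 counts in shCON and 8 and 1 in shSPTLC2, with every stretch of 50 bases shared with HIST1H4J. HIST1H4B, HIST1H4C, HIST1H4D, HIST1H4E, HIST1H4J, HIST2H4A and HIST2H4B had at most 7.

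Per length, by the deposited FPKM, HIST1H2BK was the highest gene of the clusters, at 88.4 and 90.8 FPKM in shCON and 61.9 and 54.6 in shSPTLC2. HIST1H1C and HIST1H2AC stood next, at levels that overlap: 14.7 and 19.8 FPKM in shCON for HIST1H1C against 16.7 and 16.0 for HIST1H2AC. In shSPTLC2 they had 10.2 and 11.7 FPKM against 9.99 and 9.57. HIST1H4I followed at 9.39 and 8.90 FPKM in shCON and 7.48 and 6.79 in shSPTLC2. HIST3H2A had 3.27 to 4.30 FPKM over the 4 libraries and HIST1H3E 0.917 to 1.31.

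Summed by type, the levels of H1, H2A, H2B and H4 were lower in both shSPTLC2 libraries than in either shCON library, and those of H3 were not. The H2B genes summed to 57.5 and 59.8 CPM in shCON and 38.6 and 35.6 in shSPTLC2, a log2 ratio of means of -0.66. For H2A the sums were 34.8 and 32.9 CPM against 22.9 and 21.1 (log2 ratio -0.62), and for H1 9.78 and 13.2 against 6.94 and 7.75 (-0.64). For H4 they were 17.5 and 16.6 CPM against 13.5 and 13.3 (-0.35), and for H3 4.65 and 4.53 against 5.30 and 4.69 (0.12). HIST1H3E, lower in both shSPTLC2 libraries, held 185 of the 285 H3 counts, so the H3 sum mostly follows that gene. The exact binomial 95% intervals of the shares of counts overlapped between the groups for H1, H3 and H4 and did not for H2A and H2B. All 71 genes together went from 125.6 ± 2.05 to 84.9 ± 3.42 CPM (SD, n = 2), a log2 ratio of -0.56 that carries no test. The 35 genes with counts but no test held 4.81% of the counts, and their sums were 4.65 and 5.01 CPM in shCON and 5.85 and 4.69 in shSPTLC2. In bulk RNA, fewer cells that make a transcript and less of it per cell cannot be told apart.

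**Figure D4:**
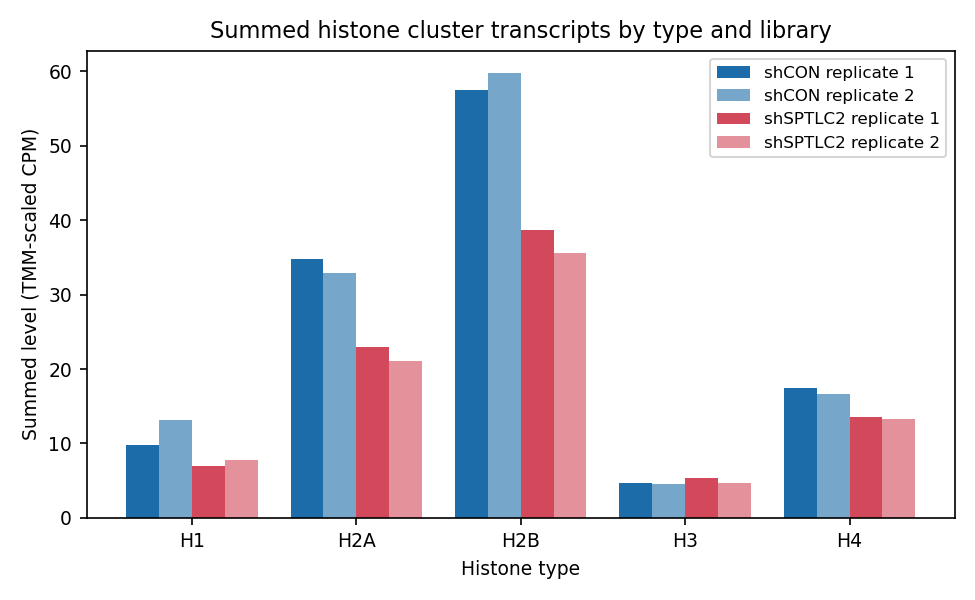
Summed level of the histone cluster genes of each type in CPM, with 1 bar per library and the axis starting at 0. H2B went from 57.5 and 59.8 CPM in shCON to 38.6 and 35.6 in shSPTLC2, while the 4 H3 sums lay between 4.53 and 5.30.

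By cluster, 5 of the lower calls were among the 55 HIST1 genes on chromosome 6, of which 14 were tested, and 1 was among the 12 HIST2 genes on chromosome 1, of which 1 was tested. The tested gene of HIST3 and that of HIST4 were not called. The neighbours HIST1H2BC and HIST1H2AC, whose starts lie 219 bases apart on opposite strands, were both called lower, and the single octamer in each of their windows is the same stretch of DNA. HIST1H2BJ and HIST1H2AG, 292 bases apart, also hold a single octamer in common, and had log2 fold changes of -1.77 and -0.62, the second not called. The partners of HIST1H2BK and HIST2H2BE, HIST1H2AH (331 bases) and HIST2H2AC (323 bases), had 0 counts and at most 7. The octamer was in the window of 5 of the 6 genes called lower and 3 of the 11 not called, which for H2B alone was 4 of 4 and 2 of 4. These shares are a description with no test, since the type and the motif go together.

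Of 33 tested genes that make and degrade histone mRNA, 4 were called higher and 4 lower, shares near those over all tested genes (10.4% higher and 9.00% lower), with a median log2 fold change of -0.003. CSTF2, a cleavage factor of 3′ end formation, fell by 0.61 ± 0.12 on the log2 scale (edgeR adjusted p = 0.0028), and COIL, which encodes coilin of Cajal bodies, fell by 0.59 ± 0.13 (0.0071). SNRPE and SNRPF, which encode Sm proteins, were also called lower. NPAT, the coactivator of histone gene transcription, rose by 0.58 ± 0.13 (edgeR adjusted p = 0.0065) and DCP2, a decapping enzyme, by 0.55 ± 0.13 (0.0082), and CDK2 and CASP8AP2 were also called higher. SNRPB (-0.15 ± 0.12, edgeR adjusted p = 0.400) and UPF1 (-0.19 ± 0.11, 0.219), the most abundant of the list, were not called. SLBP, singled out after its value was seen, had 75.5 and 69.8 CPM in shCON and 68.6 and 68.7 in shSPTLC2 (log2 fold change -0.08 ± 0.11, edgeR adjusted p = 0.643).

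Of the 19 genes of replication-independent histones, which are polyadenylated and made throughout the cycle, 11 were tested, 1 called higher and 1 lower, again near the 10.4% and 9.00% over all genes, with a median log2 fold change of 0.02. H3F3B, which encodes H3.3, fell from 843 to 573 CPM, a log2 fold change of -0.56 ± 0.11 (SE; edgeR adjusted p = 0.0024). H2AFJ rose by 0.41 ± 0.14 (edgeR adjusted p = 0.0458), and H2AFZ, which encodes H2A.Z, had a log2 fold change of -0.27 ± 0.10 that did not pass (0.0856). The difference between these genes and the clustered genes was not tested.

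Of 25 histone chaperone genes, 7 were called lower, 2 higher (DAXX and TONSL) and 16 neither, beside 9.00% lower and 10.4% higher over all tested genes, with a median log2 fold change of -0.03. NPM1, nucleophosmin, fell by 0.70 ± 0.12 on the log2 scale (edgeR adjusted p = 0.0012). SUPT16H, a subunit of the FACT complex, fell by 0.53 ± 0.10 (0.0029), MCM2, a helicase subunit that also binds H3 and H4, by 0.52 ± 0.12 (0.0071) and UBN1, of the HIRA complex, by 0.43 ± 0.11 (0.0137). NAP1L1 had a log2 fold change of -0.19 ± 0.11 (edgeR adjusted p = 0.261). Of 50 S phase genes, 5 were called lower, 2 higher (CDK2 and RRM2) and 43 neither, with a median log2 fold change of -0.05. The lower share of S phase genes is near the 9.00% over all genes, and 10.4% of all were higher. TYMS, thymidylate synthase, fell by 0.66 ± 0.13 (edgeR adjusted p = 0.0024), RPA2, which binds single-stranded DNA, by 0.61 ± 0.13 (0.0047) and MCM3 by 0.41 ± 0.10 (0.0130), and MCM2 and MCM6 were also called lower. MCM4 (-0.13 ± 0.10, edgeR adjusted p = 0.391) and DNMT1 (-0.20 ± 0.10, 0.185) were not called.

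Every call in these 4 lists was lost without shSPTLC2 replicate 1. That fit, with 1 library left in the group, also called far fewer genes lower over the whole table. At an unadjusted p under 0.05, that fit had 6 higher and 4 lower in histone mRNA genes, 2 and 1 in replication-independent histones, 1 and 5 in chaperones and 1 and 7 in S phase genes. Whether the falls of the clustered histone genes go with a change in the share of cells in S phase was not tested.

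**Figure D5:**
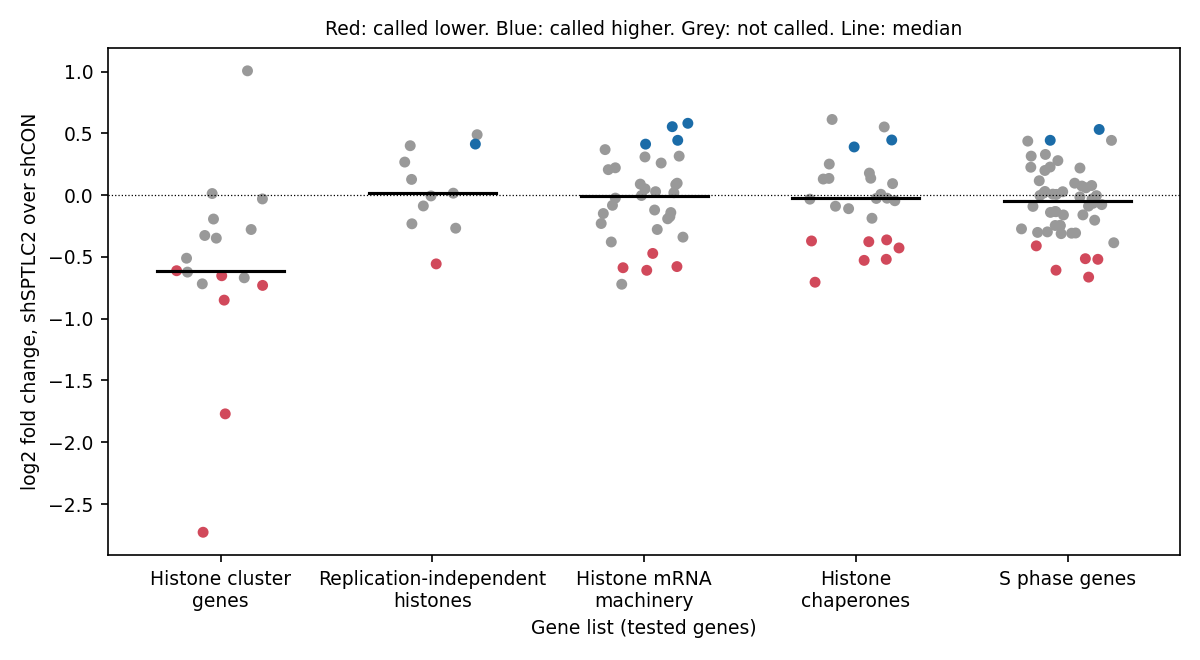
Log2 fold change of shSPTLC2 over shCON for each tested gene of the histone clusters and of the 4 comparison lists, with 1 point per gene, called genes marked and a line at each median. The medians are -0.61 for the clustered histone genes and between -0.05 and 0.02 for the 4 lists.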

How the data were processed

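RNA-seq of 2 shCON and 2 shSPTLC2 libraries of Hey-A8 cells was analysed from the deposited tables, with groups and replicate numbers from the titles. The counts are whole-number reads per Ensembl gene as deposited, not normalized. The deposited FPKM values equal count over model length times 1 factor per library. HISAT2, StringTie, SAMtools and hg38 are named per the submitters' processing notes. Which program counted the reads, and with what strand setting, is not given in the sources used here. Overlapping and antisense genes thus cannot be told apart. Of the 58735 gene positions, 58724 equal those of GENCODE 29, which gave the transcript sequences. Coordinates are 1-based on hg38.

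Counts were fitted in R 4.3.3 with edgeR 4.0.16 over all 4 libraries without covariates: filterByExpr (minimum count 10, minimum total 15), TMM scaling, robust quasi-likelihood fit, two-sided F test, and Benjamini-Hochberg adjustment over 15313 genes. The SE was taken as the size of the log2 fold change divided by the root of F. Genes with an adjusted p under 0.05 were called. Members, lists (histone mRNA machinery, replication-independent histones, chaperones, S phase, RNA without poly(A) and cell type markers) and tests were chosen with earlier results of these data known. All 17 tested members were named, with values per library for called genes and for the 2 of each type with the highest mean FPKM. The other members were named by their highest count, given here as the highest of a group of genes. HIST1H3G was given per library after its values were seen. Of each list, up to 4 called genes with the smallest adjusted p and the 2 of highest CPM were named, and further called genes named without values were chosen after their values were seen.

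Depth limits the low genes: 3 counts, the limit that a count of 0 allows by counting error alone, are 0.195 to 0.206 CPM. In chi-square tests between replicates, 36.7% of genes differed at p under 0.05 in shCON and 28.4% in shSPTLC2, so the replicates were counted as separate libraries. Same-numbered libraries deviated from their group means with a correlation of -0.0133 across 15313 genes, which does not pair them. Alternatives were DESeq2 1.42.0, limma 3.58.1 on log2(FPKM + 0.1) and log2(FPKM + 1), other scalings and filters, GC and length offsets, a replicate block and each library left out. Leaving out mitochondrial genes was added after seeing the data. The scripts were tested on simulated data.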

Additional observations from a re-analysis of the deposited data

How the results depend on the processing

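The count of 0 histone cluster genes called higher was the same in all 19 alternatives. The 6 lower calls stayed within 4 to 6 except when an shSPTLC2 library was left out, and leaving out single libraries gave 2 to 6. The median log2 fold change of the tested histone genes was -0.53 to -0.35 with a library left out, -0.043 with no filter on low counts (52 genes), -0.45 by limma on log2(FPKM + 0.1) and -0.26 on log2(FPKM + 1), where the larger pseudocount shrinks low genes by construction. Leaving out single libraries gave 0 to 12 calls among histone mRNA genes (8 with all libraries), 0 to 4 among replication-independent histones (2), 0 to 10 among chaperones (9) and 0 to 11 among S phase genes (7). Replication-independent histones had 1 call in DESeq2, without robust estimation, with the length offset and in both limma fits. Both limma fits called 3 histone mRNA genes and 3 chaperones. The cause of these shifts was not tested. Only 3 of the named genes changed sign. HIST3H2A, at -0.03, had 0.023 with library totals and -0.21 to 0.16 with single libraries left out. HIST1H2BH, at 0.01, ran from -0.15 to 0.15 with single libraries left out, where shCON replicate 2 gave -0.11. SNRPB, at -0.15, ran likewise from -0.32 to 0.0039.

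With the replicate number as a block, 6 histone cluster genes were called lower and 0 higher, with a median of -0.61, and 10 histone mRNA genes, 3 replication-independent histones, 10 chaperones and 7 S phase genes were called. The numbers mark no known shared culture or day. With 4 libraries, genes of few counts, most of the histone clusters, could show only large differences.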
